A study of Oryza sativa with 17 samples.

Results

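XYL4 (LOC4336485), xylA (LOC4340169) and UGDH (LOC4352146) are 3 of the 32657 genes measured in the developing grains of black and red rice. They were chosen by gene identifier, because the Fe responses of these genes at veraison, the stage at which the grain coat colours, had already been seen. The Fe differences at 10 days after flowering (DAF) in black rice and at 15 DAF in red rice therefore chose them and are described without a test. The levels in red rice at 20 DAF played no part in the choice. The difference between 20 and 15 DAF and the difference between the varieties were not themselves used for it. Both contain libraries whose Fe differences chose the genes, so the p values of these genes there are not free of that choice. The names XYL4 and xylA are those used for these genes in the study, and the RefSeq gene table used here gives no short name for either. It lists LOC4352146 as UGD4.

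The 3 genes stand at different points of one route. UDP-glucose dehydrogenase (UGDH) oxidises UDP-glucose to UDP-glucuronate, the parent of UDP-xylose and UDP-arabinose, which plants build into the xylans and pectins of the cell wall. A β-D-xylosidase, the enzyme that the name XYL4 stands for in Arabidopsis, takes xylose units off xylan and related chains. Xylose isomerase, encoded by xylA, turns free xylose into xylulose, which can then enter the pentose phosphate pathway. In a cereal grain this route belongs to wall building and wall turnover while starch and storage protein fill the endosperm.

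Grains of the black rice cultivar Nanheinuo (BR) and the red rice cultivar Yuhongdao 5815 (RR) were collected, and polyadenylated RNA was sequenced. The 17 libraries fell into 6 groups: BR Fe at 10 DAF with 3 libraries, BR control at 10 DAF with 3, RR Fe at 20 DAF with 3, RR control at 20 DAF with 3, RR Fe at 15 DAF with 3 and RR control at 15 DAF with 2. Replicate 1 of the last group was not analysed here. Fe plants received a foliar spray of FeSO4·7H2O, and control plants a spray of deionized water. The labels give no dose for the Fe libraries, and the dose named in the study's methods for its gene network is 0.1% (w/v). Every spray, control included, held 0.5% (w/v) nicotinamide and 0.005% (v/v) Tween 80, was given at the end of booting and was repeated 7 d later. Each variety is a single cultivar, and BR and RR were sampled at veraison on different days, so that variety and day cannot be told apart.

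Levels are given as FPKM, fragments scaled to transcript length and to the total of mapped fragments, as deposited, and no read counts were at hand, so that the depth behind each value is unknown. The FPKM of a library summed to between 547675 and 679747, and 20050 to 23671 genes lay above 0. Differences are on the scale of log2(FPKM + 1), which understates changes of genes near 1 FPKM. Folds are likewise ratios of FPKM + 1, not of FPKM. A gene passed the test when limma gave it an adjusted p under 0.01 and it changed by 1.5-fold or more. The model was fitted to the 19774 genes with at least 1 FPKM in at least 2 libraries. The libraries differed in how much of the FPKM went to the endosperm. In RR at 15 DAF the 12 endosperm storage and starch genes of the marker list, none of which was at 0 in any library, summed to 19.9%, 4.92% and 5.05% of all FPKM in the 3 Fe libraries, against 17.6% and 23.3% in the 2 control libraries. The same genes held 31.0% to 35.7% in the 6 BR libraries and 0.636% to 2.78% in the 6 RR libraries at 20 DAF. Beside this, the median log2 difference of all genes tested was 0.53 between 20 and 15 DAF in RR, -0.58 between BR and RR at 15 DAF and 0.29 between Fe and control in RR at 15 DAF. It was 0.01 between Fe and control in BR and -0.00 between Fe and control in RR at 20 DAF. The part of endosperm transcripts in the differences below was not tested.

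UGDH was transcribed in all 17 libraries. It had 3.56, 5.92 and 2.94 FPKM in the BR Fe libraries, against 7.55, 11.4 and 6.74 FPKM in the BR control libraries. In RR at 20 DAF it had 5.19, 7.21 and 2.70 FPKM under Fe and 5.03, 6.22 and 6.27 FPKM in the control. In RR at 15 DAF it had 1.80, 3.93 and 1.61 FPKM under Fe and 2.07 and 1.29 FPKM in the control. The Fe and control libraries did not overlap in BR and did in RR on both days. Ordered by mean, BR control came first with 8.56 ± 2.49 FPKM (SD, n = 3) and RR control at 15 DAF last with 1.68 ± 0.550 FPKM (SD, n = 2). Between them lay RR control at 20 DAF with 5.84 ± 0.701 FPKM, RR Fe at 20 DAF with 5.03 ± 2.26 FPKM, BR Fe with 4.14 ± 1.58 FPKM and RR Fe at 15 DAF with 2.44 ± 1.29 FPKM (SD, n = 3 each). BR control lay above its nearest neighbour with no overlap of libraries, and each later neighbouring pair overlapped.

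XYL4 was a weakly transcribed gene whose levels reached 1 FPKM in all 6 BR libraries and in none of the 11 RR libraries. It had 2.93, 2.18 and 2.40 FPKM in the BR Fe libraries, against 1.18, 1.28 and 1.10 FPKM in the BR control libraries. In RR at 20 DAF it had 0.189 FPKM in the first Fe library and was listed at 0 in the other two, against 0.449, 0.867 and 0.312 FPKM in the control libraries. In RR at 15 DAF it had 0.219, 0.710 and 0.229 FPKM under Fe and 0.689 and 0.694 FPKM in the control. All BR Fe libraries lay above all BR control libraries, which in turn lay above every RR library. Within RR the neighbouring groups RR control at 15 DAF, RR control at 20 DAF and RR Fe at 15 DAF overlapped, and only the 3 Fe libraries at 20 DAF lay below the libraries of the group next to them. Among the genes tested, XYL4 stood between the percentiles 51.5 and 55.0 of its library in BR Fe, between 34.4 and 40.0 in BR control and at or under 22.0 in RR.

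xylA covered the widest range of the 3 genes. It had 0.764, 1.45 and 0.969 FPKM in the BR Fe libraries, against 1.99, 1.76 and 5.87 FPKM in the BR control libraries. In RR at 20 DAF it had 70.01, 48.2 and 74.0 FPKM under Fe and 91.3, 49.3 and 50.2 FPKM in the control. In RR at 15 DAF it had 3.97, 98.2 and 36.6 FPKM under Fe and 4.95 and 8.28 FPKM in the control. The first Fe library of that day thus lay below both control libraries, while the other two lay above both. Group means were 64.1 ± 13.9 FPKM in RR Fe at 20 DAF, 63.6 ± 23.9 FPKM in RR control at 20 DAF, 46.3 ± 47.9 FPKM in RR Fe at 15 DAF (SD, n = 3 each) and 6.61 ± 2.36 FPKM in RR control at 15 DAF (SD, n = 2). They were followed by BR control with 3.21 ± 2.31 FPKM and BR Fe with 1.06 ± 0.354 FPKM (SD, n = 3 each). Neighbours in this order overlapped, except for the last pair. At 20 DAF xylA stood between the percentiles 89.8 and 95.6 of the genes tested in its library, and in BR Fe between 27.8 and 43.0.

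**Figure D1:**
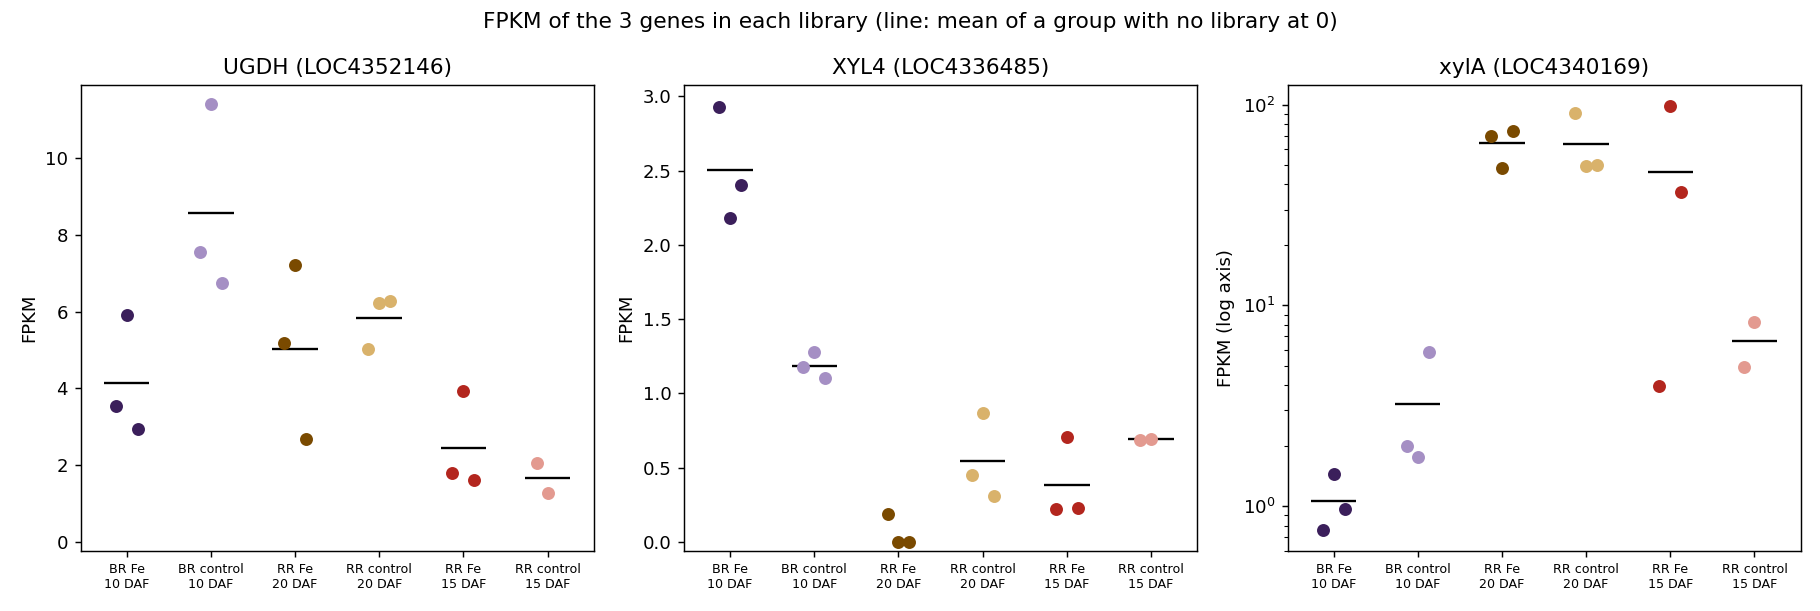
FPKM of UGDH, XYL4 and xylA in each of the 17 libraries, 1 point per library and a line at the mean of each group with no library at 0. The xylA axis is logarithmic. UGDH has its highest group mean in the BR control libraries (8.56 FPKM), XYL4 reaches 1 FPKM only in BR, and xylA lies at or above 48.2 FPKM in all RR libraries at 20 DAF.

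In BR grains at 10 DAF, the comparison for which these genes are known, XYL4 was higher under Fe and xylA and UGDH were lower. The log2 differences of Fe against control were 0.67 ± 0.156 (SE) for XYL4, -0.91 ± 0.413 for xylA and -0.91 ± 0.253 for UGDH. For each of the 3 genes the Fe and control libraries did not overlap, as was so for 8.29% of all genes tested in the higher and 6.11% in the lower direction. By the limma test 0.334% of all genes passed as higher and 0.379% as lower. Since the genes were selected on this difference, nothing is read from these values. The difference of xylA was -0.49 without BR control replicate 3, the library with 5.87 FPKM. In the BR libraries the endosperm marker sums differed little between Fe (31.0% to 34.3% of all FPKM) and control (31.1% to 35.7%). The embryo and aleurone marker sums were 238 to 763 FPKM in Fe libraries and 524 to 1810 FPKM in control libraries, with 1 or 2 of the 9 markers at 0 in each library. The 7 photosynthesis markers summed to 9.84 to 65.1 FPKM in Fe libraries and 5.16 to 10.8 FPKM in control libraries, and the part of either list in the differences was not tested.

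In RR grains at 15 DAF the signs were the other way round, with wide errors. The log2 differences of Fe against control were -0.31 ± 0.300 (SE) for XYL4, 1.83 ± 0.795 for xylA and 0.32 ± 0.487 for UGDH, beside the median of 0.29 over all genes. In this comparison 0% of the genes tested passed as higher and 0% as lower by limma, while 1300 genes had a higher and 314 a lower level at an unadjusted p under 0.05. For all 3 genes the Fe and control libraries overlapped, while 13.7% of all genes had every Fe library above and 3.05% every Fe library below the control libraries. The xylA difference rested on Fe replicates 2 and 3, and with both left out it was -0.58. These were also the 2 libraries of that day with the low endosperm sums, 32017 and 33535 FPKM, against 134928 FPKM in Fe replicate 1 and 118307 and 158570 FPKM in the control libraries. Of the 9 embryo and aleurone markers, Fe replicate 3 held 11343 FPKM, against 5047 FPKM in Fe replicate 1 and 5021 FPKM in Fe replicate 2. The control libraries held 4829 to 5193 FPKM. In the plot of xylA against the endosperm sum these 2 libraries lie nearer to the libraries of 20 DAF than to Fe replicate 1.

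**Figure D2:**
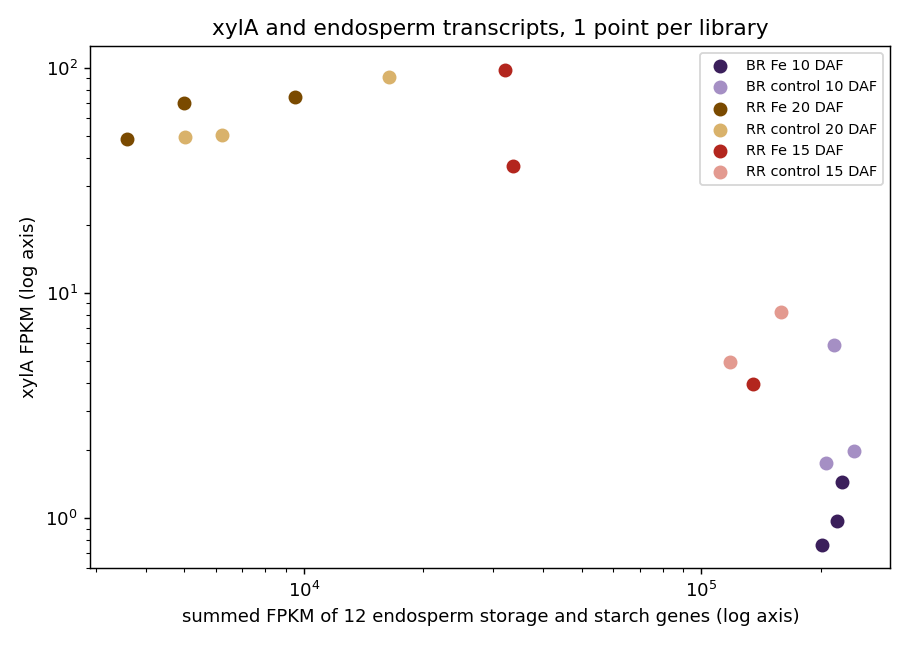
xylA FPKM (vertical, log axis) against the summed FPKM of 12 endosperm storage and starch genes (horizontal, log axis), 1 point per library, coloured by group. The 6 RR libraries of 20 DAF and Fe replicates 2 and 3 of 15 DAF have xylA levels from 36.6 to 98.2 FPKM at endosperm sums up to 33535 FPKM, and the other libraries have at most 8.28 FPKM at sums from 118307 FPKM upward.

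The RR libraries at 20 DAF allow a test of Fe against control for these genes after veraison, in libraries that did not choose them. No difference passed the test. With 3 libraries per group and the errors given here, this does not show that the levels were equal. xylA had 64.1 ± 13.9 FPKM under Fe and 63.6 ± 23.9 FPKM in the control (SD, n = 3 each), a log2 difference of 0.05 ± 0.576 (SE) with an adjusted p of 1 in limma. UGDH had 5.03 ± 2.26 FPKM under Fe and 5.84 ± 0.701 FPKM in the control (SD, n = 3 each), a log2 difference of -0.25 ± 0.353 with an adjusted p of 1. Its sign rested on Fe replicate 3, without which the difference was 0.06. XYL4 was lower in each of the 3 Fe libraries than in each of the 3 control libraries, with a log2 difference of -0.53 ± 0.217, an unadjusted limma p of 0.0265 and an adjusted p of 0.911. All 6 values lay under 1 FPKM, and 3.75% of all genes tested had their Fe libraries below their control libraries in this way and 5.15% above. Over all genes tested 0% passed as higher and 0.0152% as lower, a total of 3 genes, while unadjusted p values under 0.05 went to 506 higher and 488 lower genes.

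Between the days of RR grain filling, xylA was higher at 20 than at 15 DAF in FPKM as deposited. With Fe and control weighted equally, its FPKM + 1 was 4.49-fold higher at 20 DAF than at 15 DAF (log2 difference 2.17 ± 0.491 SE, adjusted p = 0.00175, limma). Among the genes tested 29.8% passed as higher at 20 DAF and 5.92% as lower. The difference of xylA was well above the median of all genes, 0.53. When every library was centred on its median it was 1.63 with an adjusted p of 0.0135, and after quantile normalization 1.55 with an adjusted p of 0.0173. Neither passed the test, so the call depended on the scaling. The log2 difference was 1.27 in the Fe libraries alone, which overlapped through the 98.2 FPKM of replicate 2 at 15 DAF, and 3.06 in the control libraries alone. The gap between these values contains the Fe difference at 15 DAF that chose the gene, so they are given without a test. The tested difference averages both treatments at 15 DAF, so its adjusted p is not free of that choice. The endosperm marker sum was 3589 to 16398 FPKM at 20 DAF and 32017 to 158570 FPKM at 15 DAF. The photosynthesis markers summed to 34.3 to 298 FPKM at 20 DAF and 7.44 to 21.6 FPKM at 15 DAF. The embryo and aleurone markers overlapped between the days, with 6082 to 8828 FPKM at 20 DAF and 4829 to 11343 FPKM at 15 DAF. The part of any of these lists in the difference was not tested.

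In FPKM + 1, UGDH was 2.11-fold higher at 20 DAF than at 15 DAF (log2 difference 1.08 ± 0.301 SE, adjusted p = 0.00678, limma). It had 2.70 to 7.21 FPKM in the 6 libraries of 20 DAF and 1.29 to 3.93 FPKM in the 5 libraries of 15 DAF. The call of UGDH lay close to the threshold. It includes the 15 DAF libraries that chose the gene, so its adjusted p is not free of that choice. Centring on library medians left 0.55 (adjusted p = 0.0945) and quantile normalization 0.61 (adjusted p = 0.0493), and 7 of the 11 fits with 1 library left out had an adjusted p above 0.01, the highest 0.0482 without Fe replicate 3 at 15 DAF. XYL4 had a log2 difference of -0.26 ± 0.185 (adjusted p = 0.247), against the background of a positive median. With libraries centred on their medians, the XYL4 difference was -0.79 with an adjusted p of 0.00154 (limma). On the log2(FPKM + 1) scale this centring moves the difference of every gene by the same amount, also of genes near 0. XYL4 lay under 1 FPKM in all 11 RR libraries, so nothing is read from that call. Under that centring 2244 of all genes were called higher at 20 DAF and 2634 lower, and under quantile normalization 2302 higher and 2056 lower, against 5887 higher and 1170 lower without either.

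At veraison BR grains had more UGDH and less xylA transcript than RR grains, a difference of variety and of 10 against 15 DAF together. In FPKM + 1, UGDH was 2.31-fold higher in BR (log2 difference 1.21 ± 0.274 SE, adjusted p = 0.00120, limma). It had 2.94 to 11.4 FPKM in the 6 BR libraries and 1.29 to 3.93 FPKM in the 5 RR libraries of 15 DAF. Of the genes tested, 7.56% passed as higher in BR and 38% as lower, and the median gene lay at -0.58. UGDH therefore had the sign opposite to the median gene, and its difference was 1.93 when libraries were centred on their medians. Of the genes called, 16.6% were higher in BR, against 58.4% under that centring and 50.6% after quantile normalization. The UGDH difference had an adjusted p of 0.0192 without RR Fe replicate 3. It was 0.60 in the Fe libraries alone and 1.82 in the control libraries alone, a gap set by the Fe differences that chose the gene and given without a test. The tested difference averages both treatments, so its adjusted p is not free of that choice.

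In FPKM + 1, xylA was 5.00-fold lower in BR than in RR at 15 DAF (log2 difference -2.32 ± 0.448 SE, adjusted p = 0.000307, limma). The difference was -3.70 in the Fe libraries alone and -0.95 in the control libraries alone, where it did not pass. This gap was likewise set by the choice of the gene. The tested difference averages both treatments and so holds part of the Fe differences that chose the gene. Its adjusted p is therefore not free of that choice. Every BR library but control replicate 3 lay below all RR libraries of 15 DAF. With RR Fe replicates 2 and 3 both left out the difference was -1.12 (adjusted p = 0.0117). Centred on library medians it was -1.61 (adjusted p = 0.00648). The embryo and aleurone markers summed to 238 to 1810 FPKM in BR and 4829 to 11343 FPKM in RR at 15 DAF, and their part in the difference was not tested.

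XYL4 was 1.81-fold higher in BR on the log2(FPKM + 1) scale (log2 difference 0.86 ± 0.169 SE). It entered the test only through the BR libraries, since no RR library reached 1 FPKM, so that the filter itself favoured this direction. No test is given for it. The difference was 1.35 between Fe libraries alone and 0.37 between control libraries alone, which again holds the Fe differences that chose the gene.

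**Figure D3:**
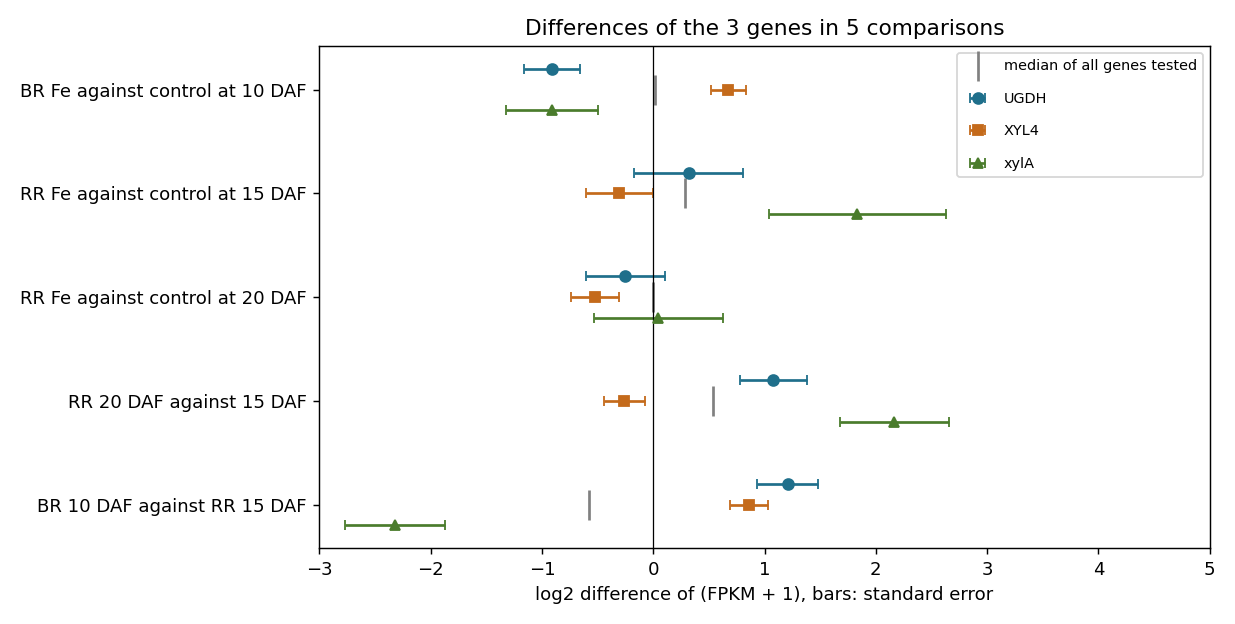
Log2 differences of (FPKM + 1) of UGDH, XYL4 and xylA in 5 comparisons, with standard errors as bars, and the median of all 19774 genes tested as a grey mark. The 2 upper comparisons chose the genes and carry no test. xylA differed by 2.17 between 20 and 15 DAF in RR and by -2.32 between BR and RR at 15 DAF, while no gene passed the test between Fe and control at 20 DAF.

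UGDH is 1 of 5 genes that the RefSeq table (assembly ASM3414082v1) names as rice UDP-glucose dehydrogenases. UGD1 was listed at 0 in 16 of 17 libraries and UGD2 in all 17, so UGD3 (LOC4334169), UGD4, which is UGDH here, and UGD5 (LOC4352147) made up the family in the grain. UGD4 and UGD5 are direct neighbours on their chromosome, with 0 genes between them, and how reads shared by such copies were counted is not given in the sources used here. UGDH made up 20.3% to 28.2% of the summed family FPKM in BR Fe libraries and 33.2% to 36.0% in BR control libraries. It made up 5.62% to 10.8% in RR Fe and 9.63% to 10.4% in RR control libraries at 20 DAF, and 3.34% to 4.48% in RR Fe and 4.06% to 4.66% in RR control libraries at 15 DAF. These shares are ratios within a library and do not depend on its scaling.

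The other 2 expressed members had patterns of their own. UGD5 averaged 1.71 ± 0.376 FPKM in BR Fe and 2.06 ± 0.755 FPKM in BR control libraries, and 46.3 ± 8.74 FPKM in RR Fe and 41.5 ± 4.36 FPKM in RR control libraries at 20 DAF (SD, n = 3 each). At 15 DAF it averaged 19.8 ± 7.96 FPKM in RR Fe libraries (SD, n = 3) and 11.9 ± 2.95 FPKM in RR control libraries (SD, n = 2). It was lower in BR than in RR at 15 DAF (log2 difference -2.48 ± 0.225 SE, adjusted p = 1.59e-07) and higher at 20 than at 15 DAF (1.49 ± 0.247 SE, adjusted p = 0.000183, limma), both also when centred on library medians. UGD3 was lower at 20 than at 15 DAF (-1.44 ± 0.350 SE, adjusted p = 0.00281), with 7.70 to 16.9 FPKM at 20 DAF and 17.5 to 86.7 FPKM at 15 DAF. The family sum was 11.9 to 21.0 FPKM in BR Fe libraries and 19.9 to 31.7 FPKM in BR control libraries. In RR it was 47.9 to 68.0 FPKM under Fe and 52.3 to 62.7 FPKM in the control at 20 DAF, and 40.1 to 118 FPKM under Fe and 31.7 to 44.3 FPKM in the control at 15 DAF.

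**Figure D4:**
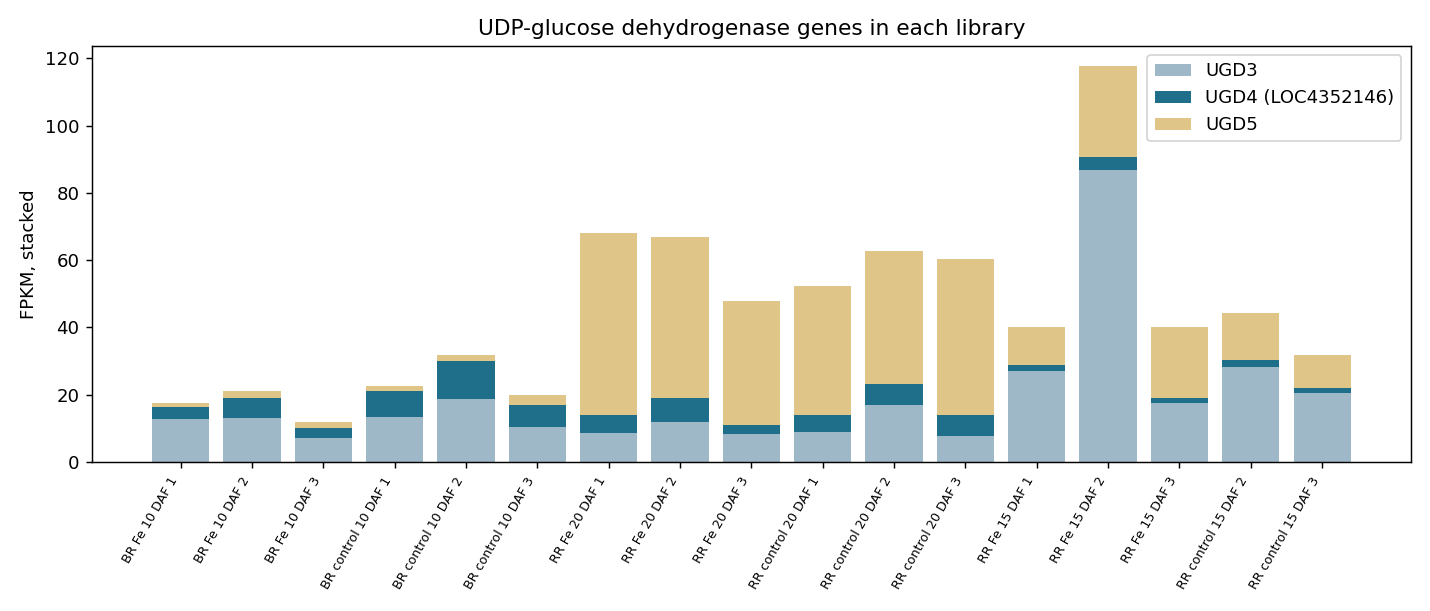
Stacked FPKM of the UDP-glucose dehydrogenase genes UGD3, UGD4 (UGDH, LOC4352146) and UGD5 in each of the 17 libraries. UGD3 was the largest part of the stack in every BR library, UGD5 in every RR library at 20 DAF, and UGD4 held 20.3% to 36.0% of the family in BR and at most 10.8% in RR.

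Of the further genes of nucleotide sugar and xylan metabolism on the list, 15 were tested. They comprise USP (UDP-sugar pyrophosphorylase), UGD3 and UGD5, the UDP-glucose 4-epimerases UGE-1 to UGE-4, the UDP-arabinopyranose mutases UAM1 to UAM3, 2 genes under the short names RGP1 and rgp2, which in rice also stand for other proteins, and the xylan synthesis genes IRX9L, IRX14 and XAT2. UDP-xylose synthases and further xylosidases have no short name that the list could match and were not analysed here. None of the 15 passed between Fe and control in BR, in RR at 20 DAF or in RR at 15 DAF, where their median log2 differences were 0.07, 0.13 and 0.51. Over all genes 0.334% passed as higher and 0.379% as lower in BR, 0% and 0.0152% in RR at 20 DAF and 0% and 0% in RR at 15 DAF, so a count of 0 of 15 is near the background. Their smallest adjusted p in BR was that of UGE-1, with 34.6, 48.3 and 21.6 FPKM under Fe and 62.9, 52.9 and 93.4 FPKM in the control (log2 difference -1.01, adjusted p = 0.0694, limma).

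Between 20 and 15 DAF in RR, 4 of these 15 genes rose and 2 fell, beside 29.8% higher and 5.92% lower over all genes. Their median was -0.00, and that of all genes 0.53. UGD5, UAM2 (0.98 ± 0.230 SE, adjusted p = 0.00230), USP (0.91 ± 0.246, adjusted p = 0.00587) and IRX9L (0.90 ± 0.245, adjusted p = 0.00600) were higher at 20 DAF. UGD3 and UGE-4 (-1.33 ± 0.240, adjusted p = 0.000344) were lower. The calls of UAM2, USP and IRX9L were lost when libraries were centred on their medians or quantile normalized, while those of UGD5, UGD3 and UGE-4 were kept under both.

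Between BR and RR at 15 DAF, 2 of the 15 were higher in BR, 10 were lower and 3 did not pass, beside 7.56% higher and 38% lower over all genes. Their median was -1.19, and that of all genes -0.58. The transcripts of UGE-4 (log2 difference 1.03 ± 0.219 SE, adjusted p = 0.000719) and rgp2 (0.88 ± 0.242, adjusted p = 0.00507) were higher in BR. Those of UAM2 (-1.96 ± 0.210, adjusted p = 9.37e-07), UAM1 (-1.89 ± 0.324, adjusted p = 0.000104), UGE-1 (-1.82 ± 0.297, adjusted p = 6.63e-05) and XAT2 (-1.76 ± 0.278, adjusted p = 4.85e-05) were lower, as was UGD5. UGE-2, UGD3, IRX9L, RGP1 and USP were lower by 0.95 to 1.29 on the log2 scale, and none of these 5 passed once libraries were centred on their medians. UGDH thus had the opposite sign to UGD3 and UGD5 in this comparison.

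**Figure D5:**
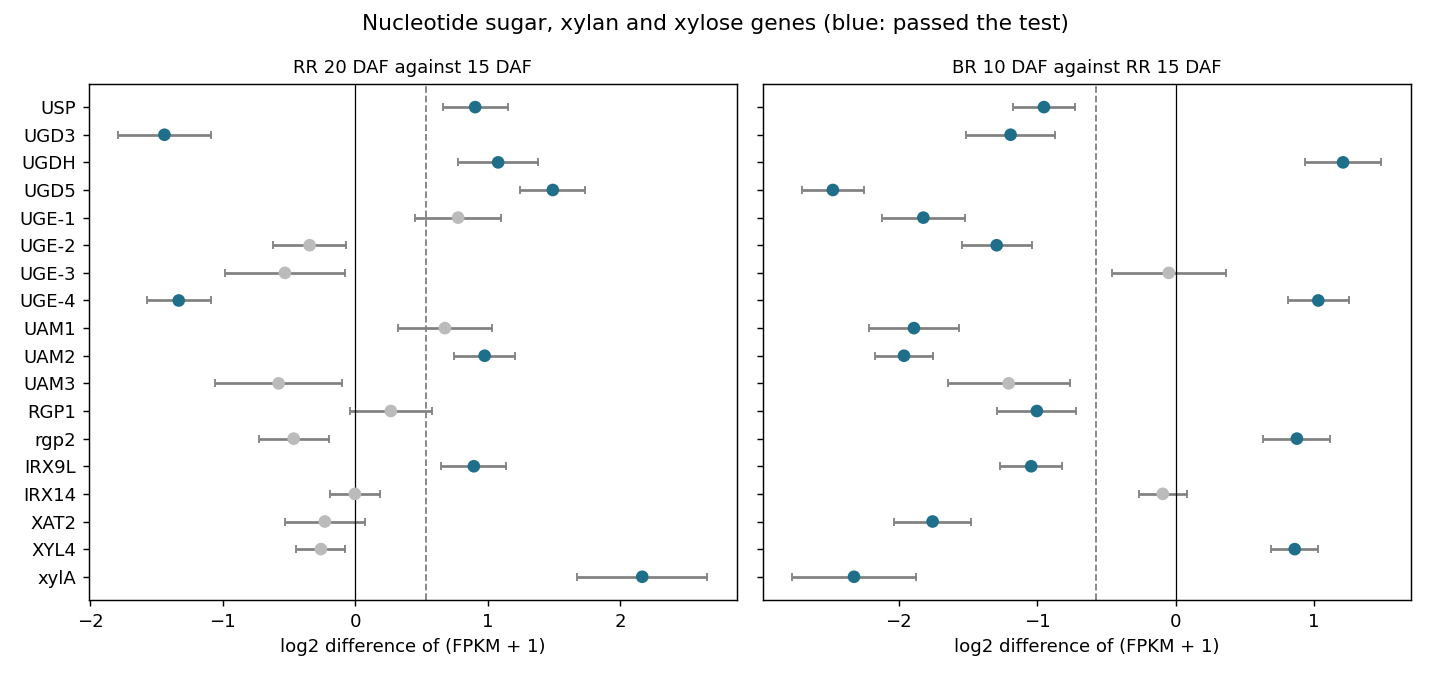
Log2 differences of (FPKM + 1) with standard errors for 18 genes of nucleotide sugar, xylan and xylose metabolism, for RR at 20 against 15 DAF (left) and BR against RR at 15 DAF (right). Blue points passed the test, the dashed line is the median of all genes, and UGDH (1.21) and UGD5 (-2.48) lie on opposite sides of 0 on the right. XYL4 on the right is also drawn blue, but the filter favoured its direction there and no test is given for it.

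The 3 genes did not follow one course over the libraries. Pearson's r of log2(FPKM + 1) over the 17 libraries, which share groups and stages, was -0.77 between XYL4 and xylA, 0.18 between XYL4 and UGDH and -0.01 between xylA and UGDH. The genes most like XYL4 were LOC4351321 (r = 0.940), LOC4327490 (0.937), LOC4347546 (0.928), LOC4334319 (0.925) and LOC4336982 (0.924). LOC4347546 is listed as BGLU32, a β-glucosidase of rice, and averaged 3.42 FPKM in BR Fe libraries and 1.54 FPKM in BR control libraries. LOC4351321 averaged 41.1 FPKM in BR Fe libraries and 10.2 FPKM in BR control libraries, and was listed at 0 in all RR Fe libraries at 20 DAF.

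The genes most like xylA, with r from 0.986 to 0.992, were LOC4343607, LOC4332527, LOC4346215, LOC4340725 and LOC4350401, none of which has a short name in the table. Many genes ran with xylA, since the median r over the 19773 other genes tested was 0.759 and 21.6% had an r of at least 0.9. On the pathway list USP (r = 0.939), UGD5 (0.937), IRX9L (0.933), UAM1 (0.925) and UAM2 (0.915) were among these, and UGE-4 ran the other way (-0.901). The genes most like UGDH reached only 0.791 to 0.854, among them LOC4344912 (r = 0.854), LOC4324105 (0.821), LOC4327953 (0.795) and LOC4347180 (0.791), none of which has a short name in the table.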

How the data were processed

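RNA from whole grains was sequenced by the authors as poly(A)-selected libraries, mapped to rice genome build IRGSP-1.0 by HISAT2 and assembled by StringTie. The deposited FPKM values, 1 column per library, come from that step, and tool versions and the treatment of shared reads are not given in the sources used here. The table holds 32657 genes, 3920 of them new genes of the assembly, and 27464 of 28577 gene identifiers were found in the RefSeq table, which gives short names only. Low values were searched for steps of single reads. The fullest bin held at most 0.404% of low genes, so depth stayed unknown and no counting interval is given.

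Tests used limma 3.58.1 under R 4.3.3, on log2 of FPKM plus a pseudocount of 1. A model with 6 group means was fitted to 17 libraries, with a variance factor per group and a trended prior. Tests were two-sided, adjusted by Benjamini-Hochberg over 19774 genes. The study's DESeq2 needs counts and was not run. The code was tested on simulated data. Libraries of a group are separate biological replicates per the study. Replicate correlations were 0.845 to 0.978, the lowest in RR Fe at 15 DAF.

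Alternatives were another pseudocount (0.1), other filters, the groups of a comparison alone, no variance factor, centring, quantile normalization, other thresholds, a replicate block, single treatments and leaving out libraries. The members, the pathway list and the marker lists were chosen with earlier results of these data known. Named genes are the 3 members, pathway genes called in a comparison and otherwise the most abundant of each role, and for each member the 5 genes with the highest Pearson r. Product descriptions and protein sequences, which the rule also named, were not used here. One gene that the rule names by its likeness to UGDH is not reported here.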

Additional observations from a re-analysis of the deposited data

Results flagged for a closer look

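XYL4 was higher in all 3 BR Fe libraries than in all 3 BR control libraries (log2 difference 0.67), and lower in all 3 RR Fe libraries than in all 3 RR control libraries at 20 DAF (log2 difference -0.53), a gap of 1.20 between the 2 Fe differences. With a pseudocount of 0.1 in place of 1 the differences were 1.01 and -2.08. Of all genes tested, 8.29% had every BR Fe library above the BR control libraries, and 3.75% had every RR Fe library below the control libraries at 20 DAF. The BR difference chose the gene, all 6 RR libraries at 20 DAF lay under 1 FPKM, and the difference between the responses was not tested.

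UGE-1, the most abundant UDP-glucose 4-epimerase gene of the list, was lower in all 3 BR Fe libraries (21.6 to 48.3 FPKM) than in the BR control libraries (52.9 to 93.4 FPKM). At 15 DAF it was higher in all 3 RR Fe libraries (178 to 229 FPKM) than in the 2 RR control libraries (124 and 153 FPKM). The log2 differences were -1.01 and 0.60, a gap of -1.61 that was not tested. Neither difference passed the limma test. Of all genes tested, 6.11% had every BR Fe library below the BR control libraries. In RR at 15 DAF 13.7% had every Fe library above the control libraries, beside a median log2 difference of 0.29 over all genes.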

How the results depend on the processing

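FPKM without counts, groups of 2 or 3 libraries and a shift of all genes between stages limit these values. UGDH at 20 against 15 DAF, 1.08, lost its call with no filter (1.08, adjusted p = 0.0152), with only the groups compared (1.08, adjusted p = 0.0106), centred (0.55), quantile normalized (0.61), in Fe libraries alone (0.79) and in control libraries alone (1.36). It ran from 0.95 to 1.24 without single libraries, and the call was kept in 4 of 11 such fits. xylA lost the same call when centred (1.63), quantile normalized (1.55) or in Fe libraries alone (1.27), and kept it in all 11 fits without 1 library. XYL4 gained a call when centred (-0.79), through a shift common to all genes, and nothing is read from it. Between BR and RR at 15 DAF, UGDH lost its call in Fe libraries alone (0.60) and without RR Fe replicate 3 (range 1.09 to 1.35). There xylA lost it in control libraries alone (-0.95) and without RR Fe replicates 2 and 3 (-1.12), an alternative that leaves 1 Fe library, assumed to vary like the rest. XYL4, given no test there because the filter favoured its direction, was 0.37 in control libraries alone. XYL4 could not be tested with a filter at 5 FPKM. Between Fe and control, XYL4 in BR was 1.01 with a pseudocount of 0.1 and 0.82 after quantile normalization, and in RR at 15 DAF -0.85 with that pseudocount and -0.58 when centred. xylA in RR at 15 DAF was -0.58 without both replicates, and 0.88 to 3.04 without single libraries. At 20 DAF it was -0.013 after quantile normalization and -0.10 to 0.33 without single libraries, and UGDH -0.51 to 0.065, positive only without Fe replicate 3. Values of 1 treatment alone contain the Fe differences that chose the genes. At 20 DAF XYL4 was -2.08 with the pseudocount of 0.1, against -0.53. The causes were not tested.

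Counts of genes called moved as well. For BR against RR at 15 DAF the count of 9009 was 3726 in control libraries alone and 5410 to 10624 without single libraries, the lowest without RR Fe replicate 3. For 20 against 15 DAF the count of 7057 was 4358 after quantile normalization, 119 in Fe libraries alone and 3811 to 7975 without single libraries, the lowest again without RR Fe replicate 3 at 15 DAF. For Fe in BR the count of 141 was 19 with a pseudocount of 0.1, 48 with a filter at 5 FPKM, 0 with only the BR libraries, 28 with no variance factor, 87 when centred, 390 at an adjusted p below 0.05, and 27 (without Fe replicate 3) to 662 (without Fe replicate 2) in fits without single libraries. For Fe in RR at 15 DAF the count of 0 was 2 with no filter, 666 without Fe replicate 1 and 17 without control replicate 3. For Fe in RR at 20 DAF the count of 3 was 0 with only those groups, 5 at an adjusted p below 0.05 and 0 to 13 without single libraries. Of the 15 pathway genes, 6 were called between 20 and 15 DAF, against 0 to 7 under the alternatives, and 12 between BR and RR at 15 DAF, against 3 to 13.

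The deviations of same-numbered Fe and control libraries of one day correlated at -0.357 to 0.231. With groups of 2 or 3 libraries, and no comparison of numbers between days, these values cannot show whether the numbers pair libraries. With a replicate block, 4466 genes were called between BR and RR at 15 DAF, 55 for Fe in BR and 0 for Fe in RR at 20 DAF. The replicate block changed no call of xylA or UGDH, and none of XYL4 in the comparisons in which it was tested. The tested differences under the block included 2.22 for xylA and 1.10 for UGDH between 20 and 15 DAF.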
